A study of Mus musculus with 27 samples.

Results

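Among primary mouse osteosarcomas, malignant tumours of bone, 6 with the highest and 6 with the lowest transcript levels of S100a8 and S100a9 were compared. The tumours were chosen by their measured S100a8 and S100a9 values. S100a8 and S100a9 encode the calcium-binding proteins that pair as calprotectin and fill the cytosol of neutrophils. The 18 primary tumours of a set of 27 arrays were ranked by the mean log2 value of both genes in the authors' deposited matrix (for each, the probe with the highest mean), and the 6 highest and 6 lowest, 12 of the 27 arrays, are called here the S100-high and S100-low primaries. The groups come from measured values and not from a treatment, so a p-value below asks whether another gene goes with S100a8 and S100a9 across these tumours.

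Neutrophils are short-lived phagocytes made in bone marrow. While they mature they fill their granules in a fixed order, first azurophil granules with myeloperoxidase and elastase, then specific granules with lactoferrin and lipocalin, then gelatinase granules, and the transcripts of each set are largely switched off once its granule is full. Mature cells leave the marrow through chemokine receptors such as Cxcr2, and in tumours they can act on T cells, vessels and spread. Bone tumours grow beside the marrow in which these cells are made.

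The tumours arose in mice on a C57BL/6 background that carried Col2.3-Cre, a Cre recombinase under a 2.3 kb rat Col1a1 promoter that is active in the osteoblast lineage. These mice were crossed either to floxed p53 mice, in which Cre removes the p53 allele, or to LSL mice, in which Cre switches on a point-mutant p53 allele. The labels do not say which p53 allele a tumour carried, nor the age of the mice, and p53 itself was not analysed here. The 27 arrays hold 6 localized primaries that had not spread, 12 metastatic primaries, 7 lung metastases and 2 liver metastases, and none of them is normal bone. Each of the 18 primaries comes from its own specimen, and the labels do not tie specimens to animals, so p-values measure the spread between specimens, which may share an animal.

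The S100-high primaries were 5 metastatic and 1 localized tumour, and the S100-low primaries 2 metastatic and 4 localized. The 6 primaries between them were 5 metastatic and 1 localized. Levels below are log2 normalized intensities on these bulk tissue arrays, in which more neutrophils and more RNA per neutrophil cannot be told apart. S100a8 had a lowest, median and highest level of 12.97, 13.97 and 15.18 in the S100-high primaries and 7.55, 9.21 and 10.41 in the S100-low primaries. S100a9 had 11.11, 12.72 and 14.22 against 6.72, 7.61 and 9.17. Both genes chose the groups, so these values are a description without a test.

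The ranking had no clear gap at either limit. In the deposited matrix the mean of S100a8 and S100a9 was 11.78 in CR-65, the last S100-high primary, and 11.66 in RF-89, the next one down. At the other limit it was 9.54 in RF-229, the first S100-low primary, and 9.58 in RF-212. Ranking by the background-corrected values gave the same 2 groups of 6.

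**Figure D1:**
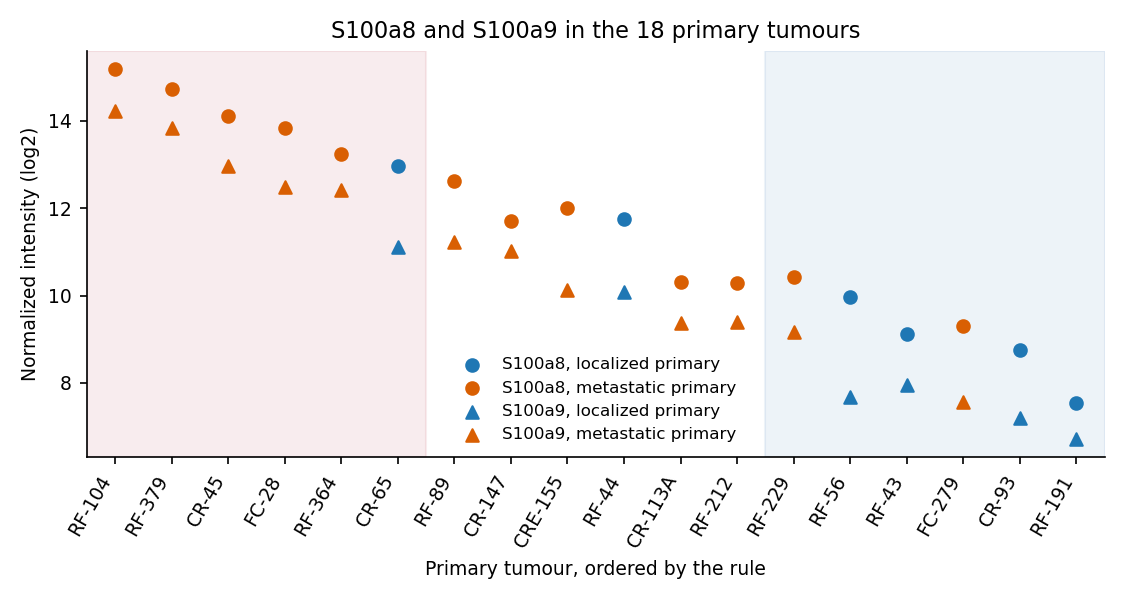
Normalized log2 intensity of S100a8 (circles) and S100a9 (triangles) in the 18 primary tumours, ordered by the ranking, with localized primaries in blue and metastatic primaries in orange. The shaded areas hold the 6 highest and the 6 lowest primaries; 5 of the 6 highest are metastatic and 4 of the 6 lowest are localized.

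The promoters of both ranking genes are shown with those of Retnlg, Ltf and Elane, which are described below and stand for the transcripts that moved with S100a8 and S100a9 and for the 2 granule classes. Each sequence runs from 250 bases before to 50 after the RefSeq start of the gene (GRCm38.p6), 5′ to 3′ on the gene's strand. Capitals mark matches, on either strand, to TTGCNNAA, a motif of C/EBP factors, or to GAGGAAGT, a motif of PU.1, both of which are factors of granulocyte development. S100a8 is at chr3:90668821-90669120 and S100a9 at chr3:90695672-90695971, on opposite strands of chromosome 3. Retnlg is at chr16:48872358-48872657, Ltf at chr9:111019042-111019341 and Elane at chr10:79886062-79886361. S100a9 lies on the minus strand and the other 4 on the plus strand.
S100a8: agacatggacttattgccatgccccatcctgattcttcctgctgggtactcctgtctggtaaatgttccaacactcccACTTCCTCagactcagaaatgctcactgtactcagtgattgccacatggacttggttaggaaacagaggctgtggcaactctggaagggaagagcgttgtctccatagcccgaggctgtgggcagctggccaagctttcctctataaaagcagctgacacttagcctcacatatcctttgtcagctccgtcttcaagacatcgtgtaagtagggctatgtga
S100a9: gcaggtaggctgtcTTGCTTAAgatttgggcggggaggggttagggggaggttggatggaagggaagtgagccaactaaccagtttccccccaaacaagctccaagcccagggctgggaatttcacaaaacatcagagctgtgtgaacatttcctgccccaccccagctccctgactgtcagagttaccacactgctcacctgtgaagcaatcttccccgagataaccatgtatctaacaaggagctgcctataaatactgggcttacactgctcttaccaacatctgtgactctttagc
Retnlg: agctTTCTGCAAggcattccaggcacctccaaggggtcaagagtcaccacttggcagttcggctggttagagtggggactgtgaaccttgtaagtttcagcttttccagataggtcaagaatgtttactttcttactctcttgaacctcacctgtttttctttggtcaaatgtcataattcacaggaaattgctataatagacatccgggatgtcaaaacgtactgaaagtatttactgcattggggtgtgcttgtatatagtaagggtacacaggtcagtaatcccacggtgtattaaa
Ltf: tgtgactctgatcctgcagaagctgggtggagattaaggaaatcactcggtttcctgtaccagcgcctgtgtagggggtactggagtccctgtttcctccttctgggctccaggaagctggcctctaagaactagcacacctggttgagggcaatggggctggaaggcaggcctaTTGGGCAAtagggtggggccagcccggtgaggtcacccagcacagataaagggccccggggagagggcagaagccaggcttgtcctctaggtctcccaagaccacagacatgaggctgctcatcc
Elane: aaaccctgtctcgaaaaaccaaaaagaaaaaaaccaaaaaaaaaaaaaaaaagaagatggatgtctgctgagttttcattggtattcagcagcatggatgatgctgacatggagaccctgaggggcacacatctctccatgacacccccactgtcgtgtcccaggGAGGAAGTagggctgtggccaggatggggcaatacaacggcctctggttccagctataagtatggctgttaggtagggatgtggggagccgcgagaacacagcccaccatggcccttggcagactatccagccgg
The S100a9, Retnlg and Ltf windows each hold 1 C/EBP motif, and the S100a8 and Elane windows each hold 1 PU.1 motif. Over all 32851 promoters of the same length, 10.8% held the C/EBP motif and 3.20% the PU.1 motif. A match describes these letters and is not a binding site.

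S100a8 and S100a9 were also set beside the study groups, localized and metastatic. These are the values that ranked the tumours, so they are given without a test. The mean of both genes had a lowest, median and highest level of 8.43, 11.64 and 14.70 over the 12 metastatic primaries and 7.14, 8.68 and 12.04 over the 6 localized primaries. The groups overlap, and the localized CR-65 and RF-44 lie within the metastatic range. The metastatic mean was 2.49 above the localized mean, by 2.29 for S100a8 and by 2.69 for S100a9. Leaving out 1 primary at a time moved the 2.49 to between 2.07, without RF-191, and 3.05, without CR-65. The background of the arrays, the mean log2 signal of probes detected on none, was 5.52 to 5.67 in 4 localized and 2 metastatic primaries and 5.83 to 6.39 in the other 12. The difference was 3.99 within the arrays of lower background (2 metastatic against 4 localized) and 3.45 within the others (10 metastatic against 2 localized).

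Across all other genes, the resistin-like gene Retnlg and the stefin Cstdc4 passed the threshold. They were the 2 of 11074 tested genes that were higher in the S100-high primaries at an adjusted p under 0.05 (0.0181% of the genes tested, limma with Benjamini-Hochberg adjustment). Cstdc4 was detected on 0 and Retnlg on 1 of the 6 S100-low arrays. Both met the detection filter through the S100-high arrays, so their direction carries a limit given below. Lower genes numbered 0, and at an unadjusted p under 0.05 there were 412 higher (3.72%) and 440 lower (3.97%). The groups did not overlap for 27 genes with the S100-high primaries above (0.244%) and 21 with them below (0.19%).

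Retnlg encodes a secreted protein of the resistin family that is made by mouse neutrophils. Its lowest, median and highest levels were 9.51, 10.17 and 11.80 in the S100-high and 4.63, 4.97 and 6.73 in the S100-low primaries. All 6 S100-high primaries lay above all 6 S100-low primaries, and RF-229 was the 1 S100-low primary in which it was detected. The log2 difference was 5.16 (SE 0.45, limma adjusted p = 0.000542). In the 6 primaries between, Retnlg ran from 6.05 to 9.63, and RF-89, the highest of them, reached the levels of the S100-high group.

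Cstdc4 encodes an intracellular inhibitor of cysteine proteases. Its levels were 7.85, 9.27 and 11.23 in the S100-high primaries, with the highest value in CR-45, and 4.54, 4.72 and 5.14 in the S100-low primaries, where it was detected on 0 of 6 arrays. It was at least 18-fold higher in the S100-high primaries, against a floor set by the lowest detected signal on each array (limma adjusted p = 0.00202). It passed the detection filter of 6 of 12 arrays through the S100-high arrays alone, and a gene that does so has to be higher there, so its direction is no finding of the test. Retnlg was detected on all 6 S100-high arrays and on 1 S100-low array. It thus also met the filter through the S100-high arrays, and its direction carries much the same limit. With no detection filter the limma adjusted p was 0.0130 for Cstdc4 and 0.00418 for Retnlg. Without CR-45 the adjusted p was 0.000874 for both, with log2 differences of 4.21 for Cstdc4 and 5.32 for Retnlg. In the primaries between it ran from 4.96 to 7.97. Both calls held with array background as a covariate, where the adjusted p was 0.00197 for Retnlg and 0.00697 for Cstdc4. Within the primaries of lower background the difference was 5.96 for Retnlg and 4.56 for Cstdc4 (3 against 2 primaries), and within those of higher background it was 4.57 and 4.59 (3 against 4). With the study group, localized or metastatic, as a covariate the log2 difference was 4.66 for Retnlg (adjusted p = 0.00490) and 4.28 for Cstdc4 (adjusted p = 0.0344). In the metastatic primaries alone, 5 against 2, the differences were 4.66 and 4.66 and neither passed (adjusted p = 0.732 and 0.925).

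The other 3 of the 5 higher genes with the smallest p did not pass, although their groups did not overlap. Stfa2, another stefin from the same cluster of close copies, whose probes may read each other's transcripts, was at 6.00, 8.81 and 9.87 against 4.61, 4.87 and 5.50, a log2 difference of 3.60 (SE 0.55, adjusted p = 0.0605). Cxcr2, the receptor through which neutrophils follow chemokines such as Cxcl1, was at 5.93, 7.16 and 8.80 against 4.46, 4.63 and 5.31, a difference of 2.56 (SE 0.39, adjusted p = 0.0605). Stfa2 and Cxcr2 were each detected on all 6 S100-high arrays and on 1 S100-low array. Their direction carries the limit given for Retnlg. A second Cxcr2 probe was detected on 0 of the 12 arrays. Capn1, a calcium-dependent cysteine protease of many cell types, was at 8.61, 9.10 and 9.51 against 6.92, 7.76 and 8.10, a difference of 1.43 (SE 0.23, adjusted p = 0.0839). A second Capn1 probe, detected on 6 of the 12 arrays, had a difference of 0.35. Between the probes of Stfa2 it was 3.60 and 2.29.

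A slope on the mean of S100a8 and S100a9 over all 18 primaries, which uses the tumours between the groups as well, was positive for 20 genes (0.181%) and negative for 5 (0.0452%) at an adjusted p under 0.05. Retnlg had a slope of 1.02 log2 units per log2 unit (SE 0.06, adjusted p = 9.75e-09) and Cstdc4 of 0.88 (SE 0.09, adjusted p = 8.18e-05). Of the 20, 9 belong to the list of specific and gelatinase granule genes, namely Retnlg, Pglyrp1, Stfa2, Lcn2, Stfa1, Chil3, Ngp, Cd177 and Ltf. Asprv1, Cxcr2, Ifitm6 and Trem3 belong to the list of mature neutrophil genes, and Ctsg, a serine protease, to the azurophil list. Slc4a1, an ion transporter of the red cell membrane, and Ppbp, a platelet chemokine, were also among them, as were the chitinase-like Chil1 and Chil4. These 18 primaries include the 12 compared, so the slope is another reading of the same tumours and not a repeat. It covered the genes that passed the same detection filter. Cstdc4 and Ctsg were detected on 0 S100-low arrays, so the direction of their slopes is no finding. Retnlg, Stfa1, Stfa2, Asprv1, Cxcr2, Trem3 and Ppbp were detected on 1 S100-low array and carry much the same limit.

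The label of neutrophils was checked against granule and mature neutrophil genes. Of 22 genes listed for specific and gelatinase granules, 21 were on the array and 16 were detected often enough to be tested. The S100-high primaries had a positive log2 difference for 13 of these 16, and all 13 had an unadjusted p under 0.05. Of all 11074 tested genes, 5156 had a positive difference, and 3.72% had one at an unadjusted p under 0.05. The median log2 difference was 3.22 over the 16 tested genes and 1.88 over all 21, beside -0.03 over all tested genes. A gene that passed the detection filter through the S100-high arrays alone had to be higher there, which is why both medians are given. Retnlg is a member and was the 1 that passed.

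Lcn2, the lipocalin that binds bacterial iron carriers, was at 9.74, 10.26 and 13.26 in the S100-high and 5.70, 7.01 and 8.50 in the S100-low primaries. Its groups did not overlap and the difference was 3.67 (SE 0.63, adjusted p = 0.0975). Stfa1, a stefin, was at 6.69, 9.77 and 12.44 against 4.47, 4.63 and 6.77 and overlapped, and the difference was 4.48 (SE 0.79, adjusted p = 0.104). Stfa1 was detected on all 6 S100-high arrays and on 1 S100-low array, as Retnlg was. The members without a positive difference were Mmp9, the gelatinase of granules that osteoclasts also make, at -1.13 (SE 1.00, adjusted p = 0.787), Orm1 and Hp, both plasma proteins, at -1.26 (SE 0.84, adjusted p = 0.716) and -0.63 (SE 0.88, adjusted p = 0.873). These 3 were named after their values were seen.

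The S100-high primaries differed among themselves in the secondary granule genes Ltf, Camp and Ngp, which were chosen after their values were seen. Ltf, the iron-binding protein lactoferrin, stood at 13.71 in RF-104, 12.31 in RF-379, 11.01 in RF-364, 9.31 in CR-65, 8.17 in FC-28 and 5.27 in CR-45. The S100-low primaries ran from 4.73 to 6.75, so that CR-45, the third of the ranked primaries, lay within them. Camp, the antimicrobial cathelicidin, was not detected in CR-45, where it stood at 4.71, and was at 13.40 in RF-104. Ngp, neutrophilic granule protein, was likewise not detected in CR-45 at 5.02 and was at 13.17 in RF-104. In the same tumour Cstdc4 and Stfa2 were at 11.23 and 9.87, the highest of the 18 primaries. The mean of the 5 tested keratinocyte genes was 9.20 in CR-45, the highest of all 27 arrays, against 6.01 to 7.22 in the other 5 S100-high primaries and 5.54 to 8.26 in the S100-low primaries. Krt14, a keratin of the basal epidermis, stood at 12.48 there. The part of skin in this tumour was not tested. The log2 difference between the groups was 4.12 (SE 1.14, adjusted p = 0.462) for Ltf, 3.29 (SE 1.25, adjusted p = 0.605) for Camp and 4.04 (SE 1.06, adjusted p = 0.419) for Ngp. A second Ltf probe, detected on 3 of the 12 arrays, had a difference of 1.20.

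Azurophil granule genes spread widely within the S100-high group. The mean of the 5 tested genes ran from 6.56 to 12.02 there and from 7.59 to 9.14 in the S100-low primaries. Of 8 listed genes, 7 were on the array and 5 were tested, and 3 of these had a positive difference. The median was 0.57 over the 5 tested and 1.79 over all 7. Elane, neutrophil elastase, was at 4.79, 6.73 and 12.34 in the S100-high primaries and 4.85, 5.15 and 5.53 in the S100-low primaries, a difference of 2.46 (SE 1.12, adjusted p = 0.642). Ctsg, cathepsin G, was at 5.42, 6.61 and 11.66 against 4.52, 4.60 and 5.05, and was detected on 6 of 6 and 0 of 6 arrays. Like Cstdc4, it passed the detection filter through the S100-high arrays alone. It was at least 5.85-fold higher there but did not pass (log2 difference 3.09, SE 0.92, adjusted p = 0.520). Ctsc, the protease that activates the granule serine proteases and is made by many cells, was at 6.49, 10.02 and 11.27 against 10.43, 12.09 and 12.22, a difference of -2.34 (SE 0.85, adjusted p = 0.605). Hexa, a lysosomal enzyme, had a difference of -0.60 (SE 0.55, adjusted p = 0.796).

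Mpo, myeloperoxidase, was read after its values were seen. It stood at 14.31 in RF-104, 12.92 in RF-379, 10.25 in RF-364 and 8.16 in FC-28, and was not detected in CR-45 at 4.92 or in CR-65 at 4.62. In the S100-low primaries it ran from 4.68 to 12.05, with the highest value in RF-191, the primary with the lowest S100a8 and S100a9. The difference was 0.57 (SE 1.72, adjusted p = 0.951). Of the 4 Mpo probes, all had a positive difference, from 0.36 to 1.48.

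**Figure D2:**
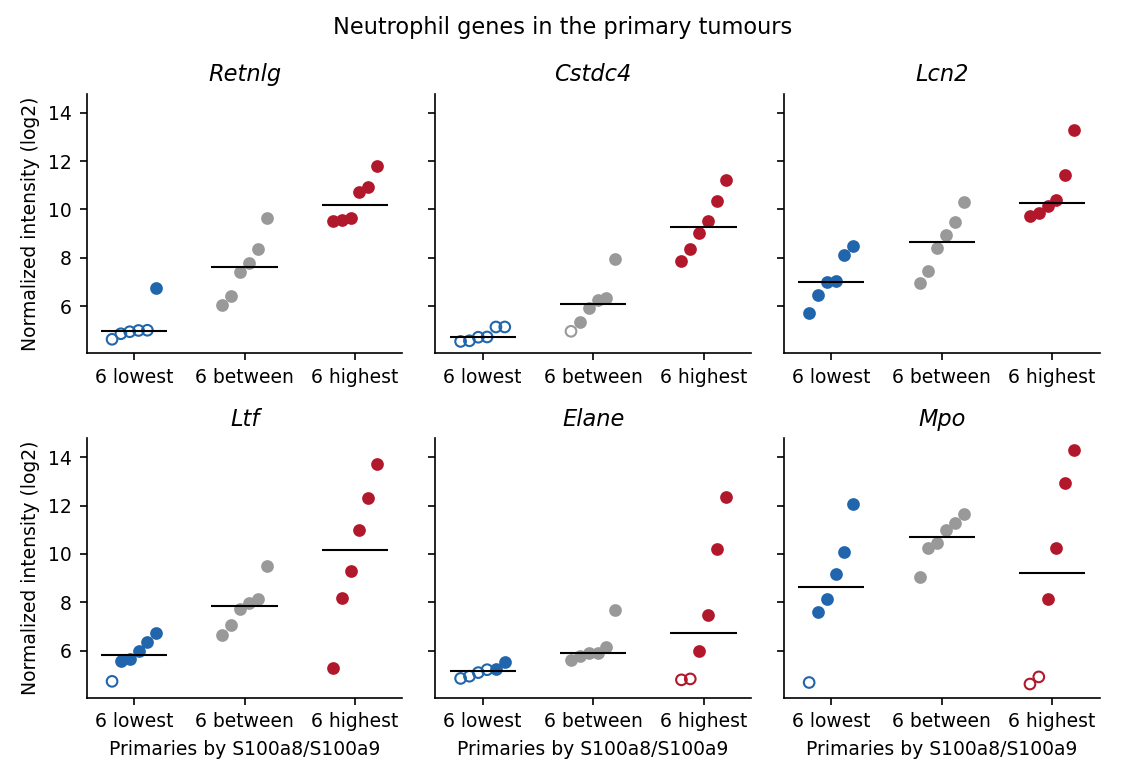
Normalized log2 intensity of 6 genes in the 6 S100-low, 6 between and 6 S100-high primaries. Each point is 1 tumour, open points were not detected and the line is the median. Cstdc4 is on none of the neutrophil gene lists and was detected on 0 S100-low arrays. Retnlg, Cstdc4 and Lcn2 separate the outer groups, whereas Mpo runs from 4.62 to 14.31 within the S100-high primaries.

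The C/EBP motif of the sequences above was found in 6 of the 12 specific and gelatinase granule genes with a promoter in the table, Anxa1, Lcn2, Ltf, Ngp, Retnlg and Stfa1, and in 0 of 5 azurophil genes. Over all genes the share was 12.2%. The PU.1 motif was found in 3 of the 5 azurophil genes, Ctsc, Elane and Mpo, and in 1 of the 12 specific and gelatinase granule genes, against 3.69% of all genes. Among mature neutrophil genes the counts were 3 of 18 and 0 of 18, and among osteoblast genes 1 of 10 and 0 of 10.

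Most mature neutrophil genes of the surface and of signalling had a positive difference. Of 26 listed, 21 were on the array and 19 were tested, 18 of which had a positive difference, 9 with an unadjusted p under 0.05, against 3.72% of all tested genes, and 0 with an adjusted p under 0.05. The median was 1.38 over the 19 and 1.37 over all 21. Per tumour, the mean of the 19 ran from 7.49 to 9.10 in the S100-high and from 6.21 to 7.57 in the S100-low primaries, with overlap. This mean averaged 6.75 over the primaries between and 6.74 over the S100-low primaries. Asprv1, a retroviral-like aspartic protease, was at 5.91, 7.41 and 7.94 against 4.66, 4.91 and 5.66 without overlap, a difference of 2.12 (SE 0.36, adjusted p = 0.0975). Asprv1 was detected on all 6 S100-high arrays and on 1 S100-low array, so its direction carries the limit given for Retnlg. Hdc, which makes histamine, was at 8.81, 9.99 and 10.77 against 6.34, 7.65 and 8.58, also without overlap, a difference of 2.26 (SE 0.44, adjusted p = 0.153). Which cells of the bulk tissue made Asprv1 and Hdc was not tested. Ifitm6, an interferon-induced membrane protein of myeloid cells, had a difference of 2.79 (SE 0.62, adjusted p = 0.279) with overlapping groups.

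Genes that neutrophils share with other myeloid cells had medians nearer to that of all genes. Of 5 NADPH oxidase genes, which make the oxidative burst, 2 had a positive difference, and the median was -0.06. Cyba, the small membrane subunit, had the smallest p of them, with a difference of 0.73 (SE 0.20, adjusted p = 0.476). Of 8 tested granulocyte transcription factors the median was 0.23, and Gfi1, a repressor needed for neutrophil maturation, and Klf5 had unadjusted p under 0.05 with differences of 1.09 (SE 0.48, adjusted p = 0.632) and 2.17 (SE 0.98, adjusted p = 0.639). A second Klf5 probe was detected on 0 of the 12 arrays. Of 7 tested blood progenitor genes 0 had an unadjusted p under 0.05, with a median of 0.42.

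Red cell and platelet genes had positive differences beside the neutrophil genes, with 0 past the threshold. Of 25 erythroid genes, 20 were on the array and 9 tested. All 9 had a positive difference, 8 of them with an unadjusted p under 0.05, against 5156 of the 11074 tested genes with a positive difference and 3.72% with one at an unadjusted p under 0.05. The median was 1.76 over the 9 and 0.76 over all 20. Slc4a1 was at 7.69, 11.24 and 12.32 in the S100-high and 4.82, 5.64 and 8.78 in the S100-low primaries, a difference of 4.03 (SE 0.97, adjusted p = 0.349). Alas2, the first enzyme of haem synthesis in red cell precursors, had a difference of 3.16 (SE 0.99, adjusted p = 0.551), and the globin gene Hbb-b2 one of 2.24 (SE 0.75, adjusted p = 0.559). Averaged per tumour, the 9 tested erythroid genes stood at 7.78 to 10.02 over the S100-high primaries and at 5.96 to 8.34 over the S100-low primaries.

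Of 15 platelet and megakaryocyte genes, 8 were tested, and 5 had an unadjusted p under 0.05, all with a positive difference, against 3.72% of all tested genes. The median was 1.27 over the 8 and 0.81 over the 13 on the array. Ppbp was at 6.28, 8.49 and 9.62 against 4.53, 4.92 and 8.51, with RF-229 the 1 S100-low primary in which it was detected, a difference of 2.84 (SE 0.69, adjusted p = 0.349). Pf4, a chemokine of platelet granules, had a difference of 1.42 (SE 0.43, adjusted p = 0.541). Averaged per tumour, the list stood at 6.46 to 8.62 in the S100-high and at 5.85 to 7.18 in the S100-low primaries. The part of blood or marrow in the samples was not tested.

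Genes of other blood cells did not pass. Of 17 monocyte and macrophage genes, 16 had a positive difference but 1 an unadjusted p under 0.05, the mannose receptor Mrc1, at 1.03 (SE 0.47, adjusted p = 0.642), and the median was 0.51. The 6 tested genes of eosinophils, basophils and mast cells all had a positive difference with a median of 1.75, or 0.70 over the 14 on the array. An unadjusted p under 0.05 was reached by 2 of them, against 3.72% of all tested genes. Their median was above the 1.38 of the tested mature neutrophil genes. Tpsab1, a mast cell tryptase, was at 5.86, 10.52 and 11.81 against 4.59, 6.43 and 10.93, a difference of 2.90 (SE 1.19, adjusted p = 0.605). The 7 tested MHC class II genes, which present antigen, had a median of 1.16 with 0 at an unadjusted p under 0.05. The median was 0.29 for 5 B lineage genes, with 0 at an unadjusted p under 0.05, and 0.30 for 12 T and NK cell genes, with 1 lower.

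Genes that attract neutrophils were examined beside the cells. Of 16 listed, 15 were on the array and 8 were tested, with a median of 0.59, or 0.57 over the 15. Of the 8, 3 were higher and 1 lower at an unadjusted p under 0.05 by limma, against 3.72% and 3.97% of all tested genes. Cxcl1, a ligand of Cxcr2, was at 6.92, 11.19 and 12.81 in the S100-high and 5.64, 7.87 and 9.93 in the S100-low primaries, a difference of 2.73 (SE 0.99, adjusted p = 0.605). Ccl3 and Ccl4, chemokines of myeloid cells, had differences of 1.63 (SE 0.64, adjusted p = 0.605) and 1.56 (SE 0.70, adjusted p = 0.636). Csf3, the growth factor that drives neutrophil production, had a difference of -0.42 (SE 0.18, adjusted p = 0.617), with levels of 4.84 to 5.85 near the lower end of the scale, and its second probe, detected on 2 of the 12 arrays, had one of 0.26. Of 8 myeloid suppression genes the median was 0.41 and 0 had an unadjusted p under 0.05. Arg1, the arginase of suppressive myeloid cells, was at 6.72, 8.54 and 12.74 against 4.91, 6.82 and 9.90, a difference of 2.05 (SE 1.07, adjusted p = 0.650).

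The bone matrix genes separated tumours within the groups. Of 22 osteoblast and bone matrix genes, 16 were tested, and 15 had a negative difference, with a median of -2.10 and 0 at an unadjusted p under 0.05. Ibsp, a sialoprotein of mineralizing bone that was picked after its values were seen, stood at 14.71 in RF-379, 14.37 in RF-364 and 14.15 in RF-104. It was at 7.87 in FC-28 and not detected in CR-45 at 4.98 or in CR-65 at 4.57. Among the S100-low primaries it was between 14.10 and 14.86 in 5 and not detected in RF-56, where it stood at 4.84. The mean of the 18 osteoblast genes on the array was under 9 in CR-45, FC-28, CR-65 and RF-56, which is 3 S100-high and 1 S100-low primaries, and in 0 of the 6 between. In these 4 tumours, labelled osteosarcoma like the others, Ibsp was thus at 7.87 or not detected. What this means for the tumour type was not tested.

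The 3 S100-high primaries with low bone matrix genes were those with the lowest Ltf, Camp, Ngp and Mpo. Without the 4 primaries of low bone matrix, 3 against 5 were left, and 7 genes were higher and 0 lower at an adjusted p under 0.05 by limma (531 and 311 at an unadjusted p). The 7 were Retnlg, Cstdc4, Cxcr2, Ltf, Camp, Ngp and Ear10. Leaving out the S100-high primaries in which Ltf, Camp, Ngp and Mpo were lowest makes their differences larger by construction, so these are given as a description. They were 6.47 for Ltf, 6.04 for Camp, 6.21 for Ngp and 3.08 for Mpo. The median of the osteoblast list was -0.23 in this comparison, that of the azurophil list 3.08 and that of the specific and gelatinase granule list 3.91, and the last pair are raised by the same choice. The part of bone or marrow tissue in the samples was not tested.

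**Figure D3:**
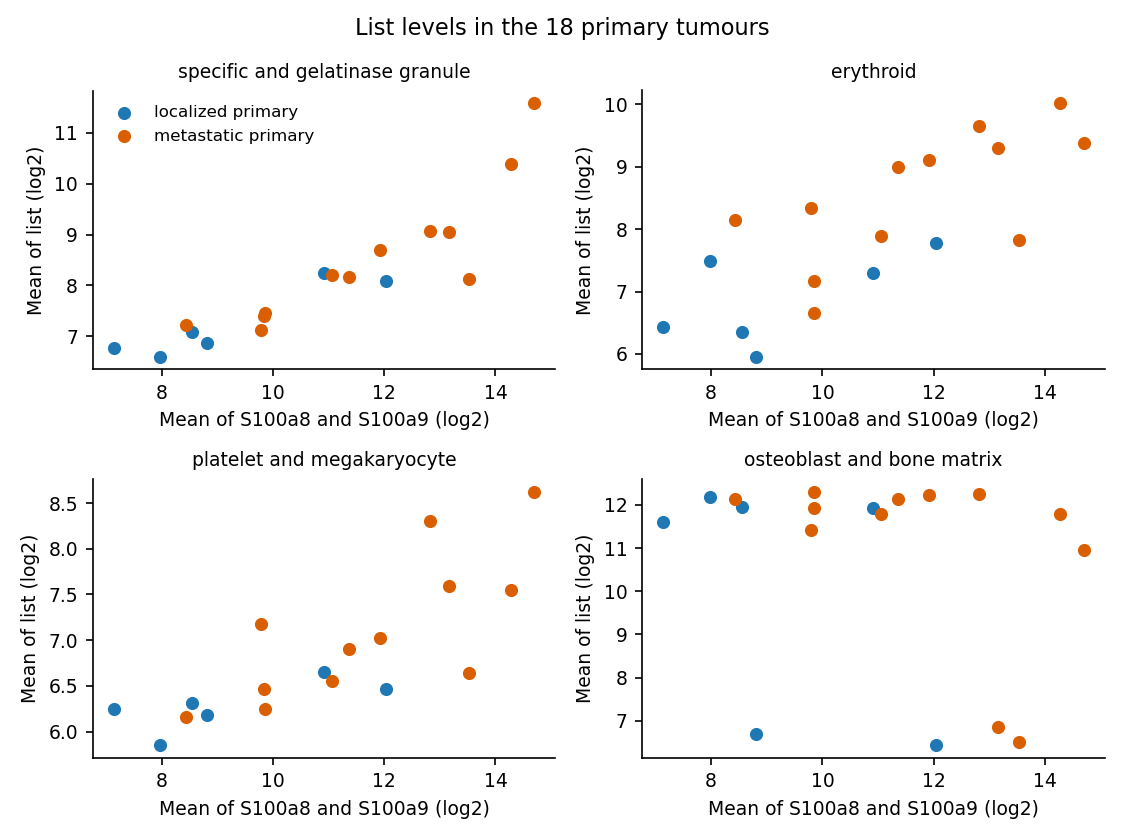
Mean log2 intensity of the tested members of 4 gene lists (vertical axis) against the mean of S100a8 and S100a9 (horizontal axis) in the 18 primaries, localized in blue and metastatic in orange. The granule list runs from 6.60 to 11.58, and 4 primaries lie apart at low levels of the osteoblast list.

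The 5 lower genes with the smallest p were all genes of histone H2B, H2bc6, H2bc14, H2bc7, H2bc11 and H2bc9, and none passed in the comparison of 6 with 6. H2B is a core histone whose clustered genes are copied into RNA mainly while DNA is replicated. H2bc6 was at 9.76, 10.50 and 10.82 in the S100-high and 11.22, 11.76 and 12.65 in the S100-low primaries without overlap, a difference of -1.54 (SE 0.28, adjusted p = 0.104). Its other 2 probes had differences of -1.37 and -1.30. H2bc14 had a difference of -1.47 (SE 0.27, adjusted p = 0.117), and H2bc7, H2bc11 and H2bc9 had differences of -1.43, -1.39 and -1.45 (adjusted p = 0.153, 0.153 and 0.155). The 5 genes are near-identical copies, so the probe of one may read transcripts of another and they count as 1 observation.

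Over the 18 primaries these 5 were the genes with a negative slope past the threshold, from -0.30 for H2bc6 (SE 0.06, adjusted p = 0.0207) to -0.27 for H2bc11 (SE 0.05, adjusted p = 0.0269). Of 6 further H2B genes, named after their values were seen, H2bc4, H2bc12 and H2bc15 had the S100-high primaries below without overlap, with differences of -1.42, -1.13 and -1.28 (adjusted p = 0.256, 0.301 and 0.350). Of all tested genes, 0.19% lay below without overlap. The probes of these H2B genes may also read transcripts of the first 5, so they are not counted as further observations. H2bc8, H2bc18 and H2bc21 overlapped, at -0.62, -0.12 and -0.29 (adjusted p = 0.642, 0.940 and 0.737). In the lung metastases the slope of H2bc6 was 0.03 (SE 0.10, adjusted p = 0.898). The difference between the slopes was not tested.

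Of 21 tested cell cycle genes the median was -0.16, and 2 had an unadjusted p under 0.05, both lower. Plk1, a kinase of mitosis, was at 5.83, 8.47 and 9.76 against 9.13, 9.92 and 10.83, a difference of -1.91 (SE 0.68, adjusted p = 0.597), and Birc5, survivin, had one of -0.62 (SE 0.25, adjusted p = 0.605). Of 14 hypoxia and glycolysis genes the median was 0.31. Adm, adrenomedullin, had a difference of 2.02 (SE 0.62, adjusted p = 0.544). Of 15 interferon-stimulated genes the median was 0.11, with 0 at an unadjusted p under 0.05.

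In the remaining tissue lists 0 genes passed. All 12 osteoclast genes had a negative difference, with a median of -0.36 and 0 at an unadjusted p under 0.05. The median was -1.02 for 8 genes of marrow stroma and adipocytes, among them the fat cell hormone Adipoq, at 4.73, 5.58 and 9.04 against 5.12, 9.0 and 12.28 (difference -2.51, SE 1.19, adjusted p = 0.642). It was -0.37 for 6 cartilage genes, -0.28 for 12 fibroblast genes, -0.16 for 14 endothelial and pericyte genes, -0.16 for 15 skeletal muscle genes and 0.16 for 5 keratinocyte genes, whose mean stood apart in CR-45 as given above. Of these lists, fibroblasts had 2 lower genes at an unadjusted p under 0.05, Col5a1 and Fn1, and the others 0.

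**Figure D4:**
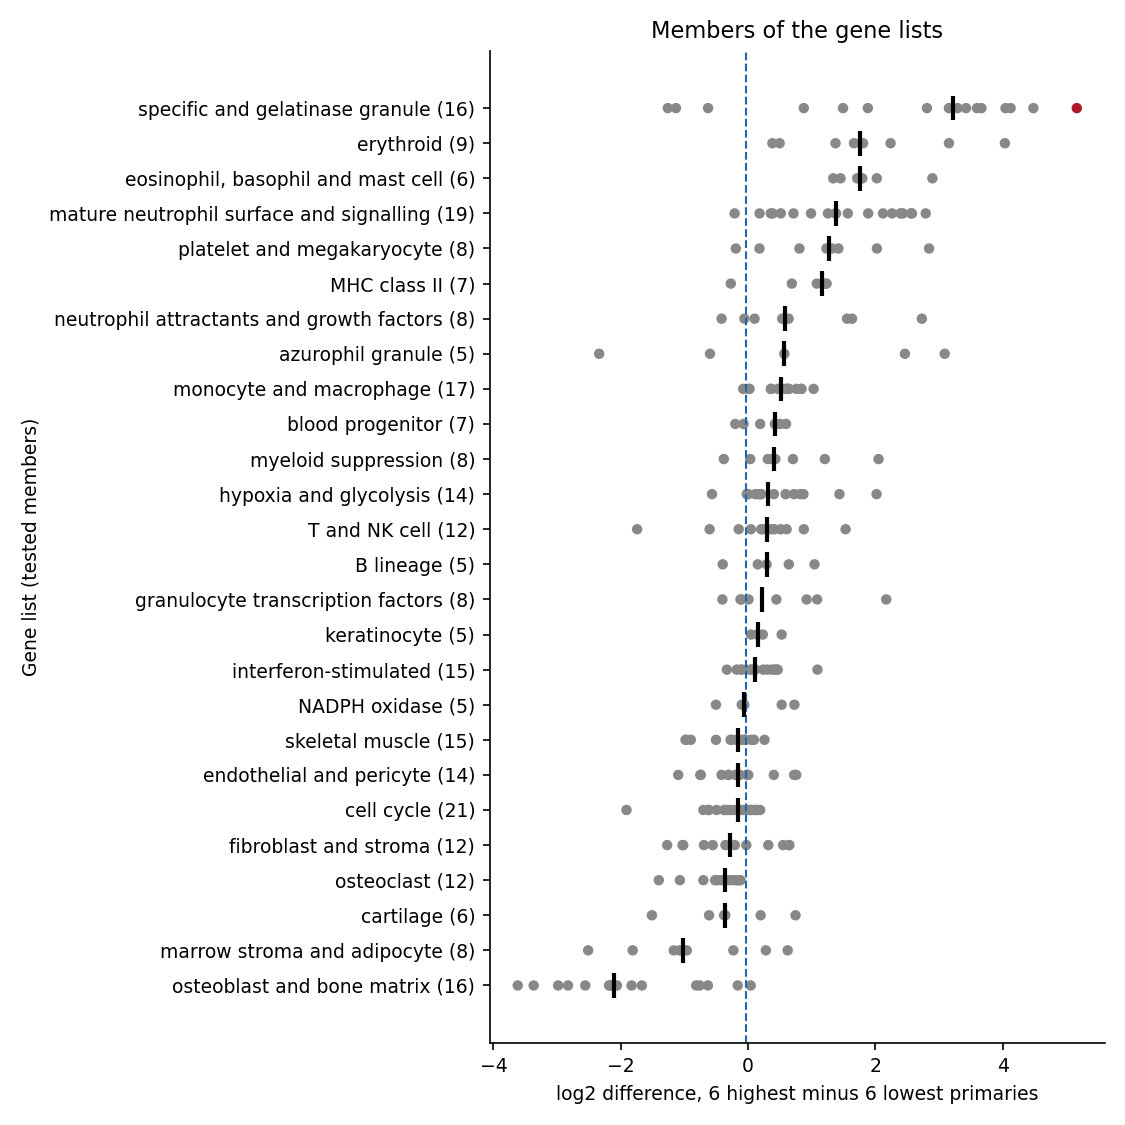
Log2 difference of the S100-high minus the S100-low primaries for every tested member (point) of each gene list, with the list's median as a black bar and the median of all tested genes as a dashed line; red marks an adjusted p under 0.05. The specific and gelatinase granule list has the highest median, 3.22, and the osteoblast list the lowest, -2.10.

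The metastases were not used to rank the primaries. The mean of S100a8 and S100a9 ran from 9.65 to 15.08 over the 7 lung metastases, with a median of 12.61. FC-28, an S100-high primary at 13.16, had the highest lung metastasis at 15.08, and FC-279, an S100-low primary at 8.43, had a lung metastasis at 11.69. RF-379 stood at 14.28 in the primary and 13.47 in the lung metastasis, and RF-364 at 12.82 and 12.23. Of the primaries between, CRE-155 stood at 11.06 and 13.38, RF-212 at 9.85 and 12.61, and CR-147 at 11.36 and 9.65.

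The lung metastasis was higher than its primary in 4 of 7 specimens. The lung arrays had a background of 5.39 to 5.57 and the arrays of these 7 primaries one of 5.67 to 6.20, and the part of the arrays in the levels was not tested. Across the 7 specimens the correlation was r = 0.43 (exact permutation p = 0.328) and rho = 0.57 (exact permutation p = 0.2), so a relation between primary and metastasis was not detectable with 7 pairs. Without FC-279 and RF-379, the primaries farthest from the median, r was 0.35 (exact permutation p = 0.583, n = 5). The 2 liver metastases stood at 10.29 in CR-147 and 13.64 in RF-342.

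**Figure D5:**
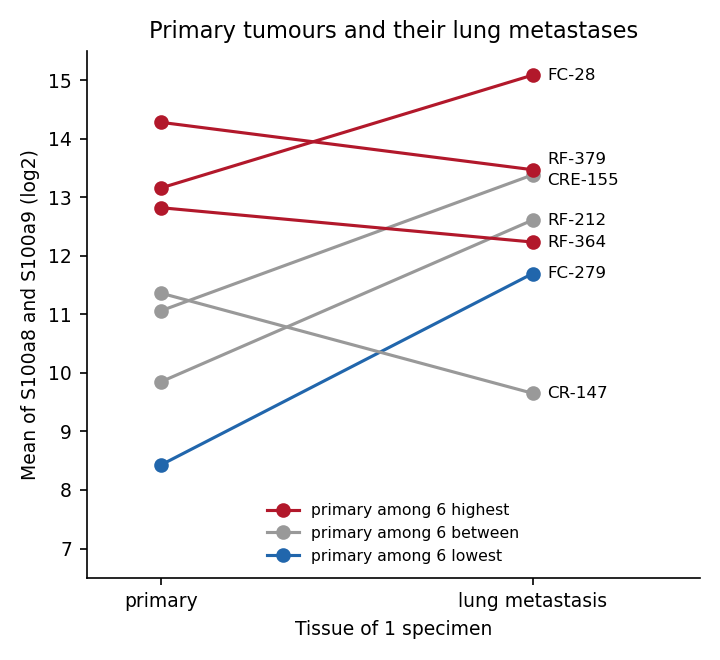
Mean of S100a8 and S100a9 (log2 intensity) in 7 primary tumours and in the lung metastasis of the same specimen, joined by lines coloured by the place of the primary in the ranking. The lung metastasis is higher in 4 of the 7 specimens.

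The relation to S100a8 and S100a9 was also read among the 7 lung metastases, where no single gene passed. The slope test over 10231 genes called 0 higher and 0 lower at an adjusted p under 0.05 by limma, and 1066 higher (10.4%) and 708 lower (6.92%) at an unadjusted p. The 5 genes with the smallest p were Egr3, a transcription factor, with a slope of -0.85 (SE 0.09, adjusted p = 0.0575), Cstdc4 at 1.20 (SE 0.16, adjusted p = 0.140), Stx11, a membrane fusion protein of immune cells, at 0.73 (SE 0.10, adjusted p = 0.140), Retnlg at 1.20 (SE 0.17, adjusted p = 0.140) and Ppm1e, a phosphatase, at -0.89 (SE 0.13, adjusted p = 0.140). Retnlg and Cstdc4, the genes that passed in the primaries, were thus 2 of these 5. All 7 lung metastases share a specimen with a ranked primary, so they are not an independent set. Retnlg ran from 7.11 in the CR-147 lung metastasis to 14.00 in that of FC-28, and Cstdc4 from 5.40 to 12.28 in the same tumours.

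Of 16 specific and gelatinase granule genes tested in the lung, 13 had a positive slope at an unadjusted p under 0.05, with a median slope of 0.58. For mature neutrophil genes it was 14 of 16 and 0.56, for erythroid genes 6 of 8 and 0.79, and for platelet genes 9 of 9 and 0.82. Of all 10231 genes tested in the lung, 10.4% had such a positive slope and 6.92% such a negative slope. Other lists rose as well, with 8 of 14 endothelial and pericyte genes (1 lower) and 4 of 5 NADPH oxidase genes (1 lower). The count was 4 of 8 for granulocyte transcription factors, 3 of 5 for blood progenitor, 3 of 6 for B lineage and 3 of 6 for myeloid suppression genes. Of 15 osteoblast genes, 10 had a negative slope at an unadjusted p under 0.05, with a median of -0.93. The FC-28 lung metastasis had both the highest S100a8 and S100a9 and the lowest mean of the osteoblast genes on the array, 5.84, against 10.78 to 11.59 in the other 6. Without it, the median slope was 0.44 for the specific and gelatinase granule genes (7 of 16), 0.40 for the mature neutrophil genes (8 of 16), 0.50 for the erythroid genes (5 of 8), 0.39 for the platelet genes (3 of 9) and -0.07 for the osteoblast genes (4 of 15), with 651 higher and 524 lower genes in all. Without the CR-147 lung metastasis, the lowest in S100a8 and S100a9, 410 genes were higher and 491 lower at an unadjusted p. The median slope was then 0.94 for the specific and gelatinase granule genes (11 of 16 positive at an unadjusted p under 0.05), 0.67 for the mature neutrophil genes (11 of 16), 0.95 for the erythroid genes (7 of 8), 1.26 for the platelet genes (7 of 9) and -1.77 for the osteoblast genes (15 of 15 negative). The endothelial and pericyte count fell to 1 of 14 without FC-28 and to 2 of 14 (2 lower) without CR-147. In the same order, NADPH oxidase genes had 4 and 1 of 5, and granulocyte transcription factors 3 and 0 of 8. Blood progenitor genes had 0 and 0 of 5, B lineage genes 2 and 1 of 6, and myeloid suppression genes 0 and 1 of 6.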

How the data were processed

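RNA of 27 mouse osteosarcoma samples was hybridised to Illumina bead arrays with 1 colour. BeadStudio was among the tools, per the submitters' processing notes. Per the file headers, each deposited bead file lists a mean signal for every probe, which is the linear intensity before any normalization. It also lists a deposited detection score, a fraction that is high for bright probes, and 1 minus this score was taken as the detection p-value. A deposited signal column with bead numbers was not used in a test. The deposited matrix holds the authors' log2 values, in the rank order of the bead intensities on every array. It ranked the primaries and served as an alternative.

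Intensities were background-corrected from the detection p-values (limma 3.58.1, R 4.3.3, offset 16), log2-transformed and brought to common quantiles over the 27 arrays. Each gene was read by its probe of the highest mean, named through the platform annotation. Genes detected (p under 0.05) on at least 6 of the 12 arrays were tested, other than S100a8 and S100a9, with lmFit and eBayes (limma), two-sided, Benjamini-Hochberg threshold 0.05. For a gene detected on no array of a group, the fold is a bound. Between 42.6% and 47.5% of probes were detected per array, and the highest correlation between arrays was 0.971. The number of arrays limits the precision. Single values were compared by exact permutation tests over samples (scipy 1.17.1). The fits were tested on simulated data.

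The members, the tests and 26 gene lists (407 entries, 370 on the array) were chosen with earlier results of these data known. The text names the 5 genes of smallest p in each direction where fewer passed, up to 4 tested members per list by smallest p, any member that passed, and the 5 of smallest p in the lung. Genes outside this rule are said to be chosen after their values were seen. Alternatives were the deposited matrix, median scaling, no detection filter, ranking by the corrected values, a slope over 18 primaries, covariates (study group, array background, specimen prefix), array weights, metastatic primaries alone, primaries without low bone matrix genes, and each primary left out.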

Additional observations from a re-analysis of the deposited data

Results flagged for a closer look

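In 44 groups of 6 or 7 arrays examined for a sample far from the others, 3 values stood out, and chance flags about 1 group in 20. All 3 were in RF-229, the first of the S100-low primaries. Retnlg stood at 6.73 there, and the next S100-low primary was at 5.0. Ctsg stood at 5.05, with the next at 4.69, and was not detected on any S100-low array. Ppbp stood at 8.51, with the next at 5.13.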

How the results depend on the processing

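Of the other settings for the comparison of 6 with 6, the slope over 18 primaries moved the count from 2 higher and 0 lower genes to 20 and 5, and leaving out the 4 primaries of low bone matrix genes moved it to 7 higher and 0 lower. With metastatic primaries alone it was 0 and 0 by limma, with 213 higher and 274 lower at an unadjusted p. Leaving out each primary in turn gave 2 to 5 higher genes, with the 5 reached without RF-364 and 3 without CR-65 or RF-229, and 0 lower. Retnlg and Cstdc4 were called in each of these settings other than the metastatic primaries alone. Over 10 named genes and all settings, 216 of 230 values kept their direction and side of the threshold, 12 passed in addition, 2 no longer passed and none turned. The difference in S100a8 and S100a9 between metastatic and localized primaries was 2.47 in the deposited matrix and 2.43 with median scaling, and 2.07 to 3.05 with each primary left out, with 2.24 without CR-93 and 2.07 without RF-191. Within the arrays of lower and of higher background, a split chosen after seeing the data, it was 3.99 and 3.45. In the lung, leaving out each metastasis in turn gave 0 higher and 0 to 1 lower genes, the 1 without CRE-155. The correlation of primary and lung metastasis was 0.43 in the deposited matrix and 0.41 with median scaling. No paired analysis was possible because the S100-high and S100-low primaries are 12 tumours from 12 specimens whose labels carry no shared replicate number.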
